A study of Homo sapiens with 6 samples.

Results

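Protein folding in the endoplasmic reticulum (ER) is watched by sensors in its membrane. IRE1 (gene ERN1) splices XBP1 mRNA, ATF6 is cut to release a transcription factor, and PERK (gene EIF2AK3) phosphorylates the translation factor eIF2. The ATF6 and XBP1 arms are known for inducing ER chaperones, folding enzymes and the machinery that degrades misfolded proteins. Phosphorylated eIF2 favours translation of ATF4, whose targets serve amino acid supply, redox balance and cell death, and this ATF4 arm is also reached from other eIF2 kinases, which is why it is called the integrated stress response. The 45 genes described here belong to these programmes. They were picked by gene symbol among the 58884 rows of the matrix, and each symbol stood on 1 row. By role they are 6 sensors and transcription factors, 20 ATF4 outputs, 15 ER chaperones and folding enzymes and 4 genes of ER-associated degradation. The question was how the ATF4 outputs compared with the ER chaperones.

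Total RNA was sequenced from KYSE450 cells, a human esophageal squamous cell carcinoma line with wild-type NRF2, and from KEAP1null-KYSE450 cells, made from it by CRISPR-Cas9 editing with a guide to exon 2 of KEAP1. KEAP1 is the adaptor that sends the transcription factor NRF2 (gene NFE2L2) for degradation. Each line gave 3 libraries, and neither line received a treatment. KEAP1null-KYSE450 is 1 monoclonal line, so loss of KEAP1 and other properties of that clone cannot be told apart, and nothing in the labels says that the libraries of a line came from separate cultures, so p-values may measure technical spread.

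The deposited values are normalized counts per gene, totalling 54829313 to 57380170 per library, and libraries are numbered here by their order in the matrix. Pearson's r between libraries, over log2 values of 16701 genes, was 0.98 to 0.99 within a line and 0.92 to 0.94 across lines. KEAP1 mRNA measured 5760, 5226 and 5146 normalized counts in KYSE450 and 5737, 4906 and 5317 in KEAP1null-KYSE450 cells (log2 fold change -0.02, adjusted p = 0.90), which overlapped, and counts per gene do not show an edit. NQO1, a known NRF2 target, was higher by 2.70 (log2) in the KEAP1null line, while NFE2L2 was lower (-0.47), a gene that shares 3509 exon bases with HNRNPA3 on the other strand. All 10 squamous epithelial markers had a mean of at least 10, with a summed level of 383327 to 507250 in KYSE450 and 598533 to 747855 in KEAP1null-KYSE450 libraries. The higher sum comes mainly from KRT5 (log2 fold change 1.46), DSC3 (0.60) and DSG3 (0.41) were also higher, and KRT14 (-6.09), KRT17 (-4.85), KRT6A (-4.70), SOX2 (-0.997), PERP (-0.64), TP63 (-0.60) and SFN (-0.41) were lower. Their part in the results below was not tested. A mean of at least 10 was reached by 1 of 4 fibroblast, 0 of 4 leukocyte and 2 of 3 endothelial markers, whose summed levels were at most 853, 22.2 and 73.8, and PECAM1, an endothelial marker, was at 0 in all 6 libraries.

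Short sequences known from the promoters of ER chaperones and of ATF4 targets are shown first, since they are the elements through which these arms are known to act. How their presence relates to the differences between the lines was not tested. RefSeq promoter windows (GRCh38.p14, 250 bases before to 50 bases after a start) were found for 43 of the 45 genes, not for NUPR1 and PDIA3. They were searched on both strands for the ER stress response element (ERSE: CCAAT, a spacer of 9 bases of any kind, then CCACG), which ATF6 and XBP1 are known to bind together with NF-Y. It was found in 6 of 14 chaperone and folding enzyme promoters, in that of XBP1 and in 0 of 19 promoters of ATF4 outputs. A gene counts where any of its windows holds the motif. The element was in 0.0769% of all 35116 windows and in 0.137% of tested genes with a window. The sites are given in the direction of the motif, with the fixed letters of the motif in capitals.
HSPA5, chr9:125241391-125241409: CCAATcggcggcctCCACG
HSP90B1, chr12:103930216-103930234: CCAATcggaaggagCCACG
HSP90B1, chr12:103930321-103930339: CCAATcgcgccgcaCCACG
CALR, chr19:12938384-12938402: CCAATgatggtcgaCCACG
CANX, chr5:179698778-179698796: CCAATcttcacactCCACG
PDIA6, chr2:10812853-10812871: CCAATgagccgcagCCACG
CRELD2, chr22:49918554-49918572: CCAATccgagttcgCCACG
XBP1, chr22:28800603-28800621: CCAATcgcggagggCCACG
In HSPA5 the site runs from base -66 to base -48 relative to the start, and in the other genes listed the sites begin between base -225 and base -52.

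A second form, ERSE-II (ATTGG, 1 base of any kind, then CCACG), was present 2 times in HYOU1 and 1 time each in SDF2L1 and HERPUD1. It was in 0.0541% of all windows and in 0.128% of tested genes with a window. The C/EBP-ATF response element (CARE, TGATGNAA), which dimers of ATF4 are known to bind, was searched in the same way. It was found in 6 of 19 promoters of ATF4 outputs, in those of CREB3L2 and HERPUD1, and in 0 of 14 chaperone promoters. The share was 3.62% of all windows and 2.76% of tested genes with a window. The sites of the 6 ATF4 outputs follow, with the fixed letters in capitals.
CHAC1, chr15:40953262-40953269: TGATGcAA
AARS, chr16:70289686-70289693: TGATGcAA
CEBPG, chr19:33374071-33374078: TGATGcAA
FGF21, chr19:48755470-48755477: TGATGcAA
ASNS, chr7:97872469-97872476: TGATGaAA
ATF3, chr1:212565216-212565223: TGATGgAA
HERPUD1 was the single one of the 43 genes with both an ERSE-II and a CARE. A match is a description of these letters and not a shown binding site.

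Whole promoter stretches are given for the chaperone most described in this response, for the member with the largest fall and for the chaperone that rose, as the 250 bases before the start, 5′ to 3′ in the direction of the gene, with capitals for ERSE, ERSE-II and, in HYOU1, the 8 letters TGACGTGG of the unfolded protein response element (UPRE), which XBP1 is known to bind. The UPRE of HYOU1 overlaps one of its ERSE-II sites, which are written here on the opposite strand to their motif. HSPA5 and HYOU1 lie on the minus strand and DNAJB9 on the plus strand.
HSPA5, chr9:125241344-125241593: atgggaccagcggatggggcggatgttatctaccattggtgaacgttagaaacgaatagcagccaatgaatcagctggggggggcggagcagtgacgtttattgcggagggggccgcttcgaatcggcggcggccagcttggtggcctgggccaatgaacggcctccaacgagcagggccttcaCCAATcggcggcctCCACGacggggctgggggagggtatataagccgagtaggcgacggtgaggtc
HYOU1, chr11:119057206-119057455: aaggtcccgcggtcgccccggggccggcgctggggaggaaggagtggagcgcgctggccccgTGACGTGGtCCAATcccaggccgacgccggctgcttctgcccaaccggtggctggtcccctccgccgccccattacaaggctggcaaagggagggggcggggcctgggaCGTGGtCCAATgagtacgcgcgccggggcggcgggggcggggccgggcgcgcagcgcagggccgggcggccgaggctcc
DNAJB9, chr7:108569624-108569873: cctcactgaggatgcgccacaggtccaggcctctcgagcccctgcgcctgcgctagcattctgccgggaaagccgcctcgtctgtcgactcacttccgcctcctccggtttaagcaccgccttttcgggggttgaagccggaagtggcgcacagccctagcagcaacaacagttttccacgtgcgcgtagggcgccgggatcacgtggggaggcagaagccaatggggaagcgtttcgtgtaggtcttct
DNAJB9 holds none of these motifs in its window. The same is true of DNAJB11, DNAJC3, PDIA4, P4HB and MANF, which were all lower in KEAP1null-KYSE450 cells.

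Among the 45 genes, 44 passed the filter of a mean of at least 10 normalized counts and were tested with limma, with Benjamini-Hochberg adjustment over 16701 genes. In KEAP1null-KYSE450 cells 24 were lower and 6 higher at an adjusted p under 0.05, while 25.5% of all tested genes were lower and 24.3% higher. A fall of at least 1 on the log2 scale was added to that threshold for 4 genes, HYOU1, DNAJB11, CALR and PDIA4, and a rise of that size for 1 gene, NUPR1, where 5.98% of all genes were past both thresholds lower and 12.2% higher. The median log2 fold change of the 44 genes was -0.37, and that of all tested genes was 0.00412. The count of 6 higher genes fell to 3 without KEAP1null library 1 or without KYSE450 library 2. Genes with many reads lay lower in the KEAP1null line throughout the data. Among the 7758 genes whose mean reached 1000 the median was -0.15 and 37.5% were lower, and among the 997 whose mean reached 10000 the median was -0.22 and 45.5% were lower. In RNA from whole cultures, fewer cells of a kind and less RNA per cell cannot be told apart.

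**Figure D1:**
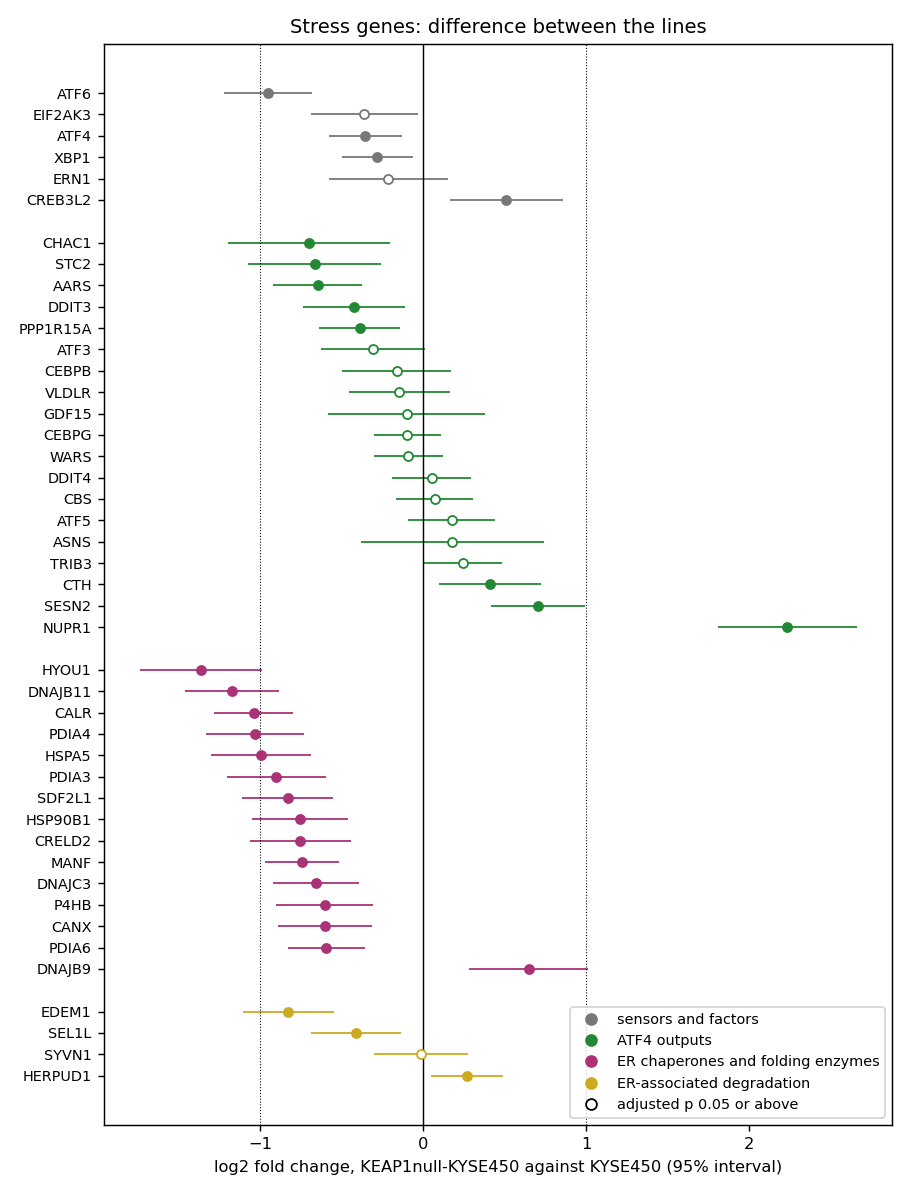
Each point is the log2 fold change of 1 gene in KEAP1null-KYSE450 against KYSE450 cells on the log2(normalized count + 1) scale, with its 95% confidence interval from limma (n = 3 libraries per line), sorted within the 4 roles; open points had an adjusted p of 0.05 or above and dotted lines mark changes of -1 and 1. The 14 chaperones and folding enzymes that fell lie between -1.36 and -0.59 with DNAJB9 alone on the right at 0.65, while ATF4 outputs lie on both sides of 0.

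The ER chaperones and folding enzymes fell together. Of the 15, 14 were lower in KEAP1null-KYSE450 cells and 1, DNAJB9, was higher. In the 14 every KEAP1null library lay below every KYSE450 library, as it did for 29.3% of all tested genes. The median log2 fold change of the 15 was -0.75. Their summed level was 460446, 427989 and 402899 normalized counts in KYSE450 and 307573, 236824 and 224078 in KEAP1null-KYSE450 libraries. As a share of all normalized counts this was 0.760% ± 0.0551 (SD, n = 3) against 0.462% ± 0.0800 (SD, n = 3), without overlap between the lines.

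HSPA5 encodes BiP, the Hsp70 chaperone that also holds the sensors inactive. It is at chr9:125234853-125241382 on the minus strand (hg38). HSPA5 measured 64319, 55543 and 55102 normalized counts in KYSE450 and 37082, 25686 and 26105 in KEAP1null-KYSE450 libraries. All values of the KEAP1null line were below those of KYSE450, and library 1 was the highest of each line. The log2 fold change was -0.99 (SE 0.14, adjusted p = 9.71e-05), just short of the size threshold, and ranged from -1.17 to -0.89 over the 16 other settings tried.

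HYOU1, the nucleotide exchange factor that resets BiP and whose promoter is given above, fell most among the 45 genes. Its levels were 21507, 16769 and 15772 normalized counts in KYSE450 and 9516, 5716 and 6153 in KEAP1null-KYSE450 libraries. The difference was -1.36 (log2, SE 0.17, adjusted p = 4.06e-05), or 2.57-fold lower. DNAJB11, an ER cochaperone that delivers unfolded clients to BiP, was at 4001, 3475 and 3502 in KYSE450 and 2026, 1450 and 1449 in KEAP1null-KYSE450 libraries, a difference of -1.17 (log2, SE 0.13, adjusted p = 1.62e-05). Both stayed past the size threshold under all 16 other settings. The exons of DNAJB11 share 381 bases with TBCCD1 on the other strand, and no source used here says whether reads were assigned by strand.

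CALR, the soluble lectin chaperone calreticulin, gave 32882, 33194 and 32402 normalized counts in KYSE450 and 18991, 14631 and 14694 in KEAP1null-KYSE450 libraries. The KYSE450 values were within a narrow band far above those of the KEAP1null line, with a difference of -1.04 (log2, SE 0.11, adjusted p = 1.10e-05). PDIA4, a protein disulfide isomerase, was at 13751, 11941 and 11111 in KYSE450 and 7591, 5358 and 5251 in KEAP1null-KYSE450 libraries, a difference of -1.03 (log2, SE 0.14, adjusted p = 6.29e-05). Neither is far from the size threshold, and their log2 fold changes ranged over the other settings from -1.16 to -0.84 for CALR and from -1.20 to -0.87 for PDIA4.

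The other 9 that fell did so by less. PDIA3, the isomerase that works with the lectin chaperones, was at -0.90 (log2), and SDF2L1, a partner of DNAJB11 in the BiP cycle, was at -0.83. HSP90B1, the ER member of the Hsp90 family, and CRELD2, an ER-resident folding factor, both stood at -0.75, and the secreted ER stress factor MANF was at -0.74. DNAJC3, a BiP cochaperone, was at -0.66. The smallest falls were those of P4HB (-0.60), the isomerase shared with collagen prolyl hydroxylase, of the membrane lectin chaperone CANX (-0.60) and of the isomerase PDIA6 (-0.59). Their adjusted p lay between 0.000104 and 0.00296. CRELD2 shares 168 exon bases with ALG12 on the other strand.

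DNAJB9, a BiP cochaperone that is known to restrain IRE1, went the other way. It measured 370, 409 and 583 normalized counts in KYSE450 and 641, 694 and 766 in KEAP1null-KYSE450 libraries. The lines did not overlap, although KYSE450 library 3 came close to the lowest KEAP1null library. Its log2 fold change was 0.65 (SE 0.17, adjusted p = 0.0065). With edgeR and DESeq2 on the 4 libraries whose reads could be recovered it no longer passed, and its log2 fold change was between 0.47 and 0.84 over all settings.

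**Figure D2:**
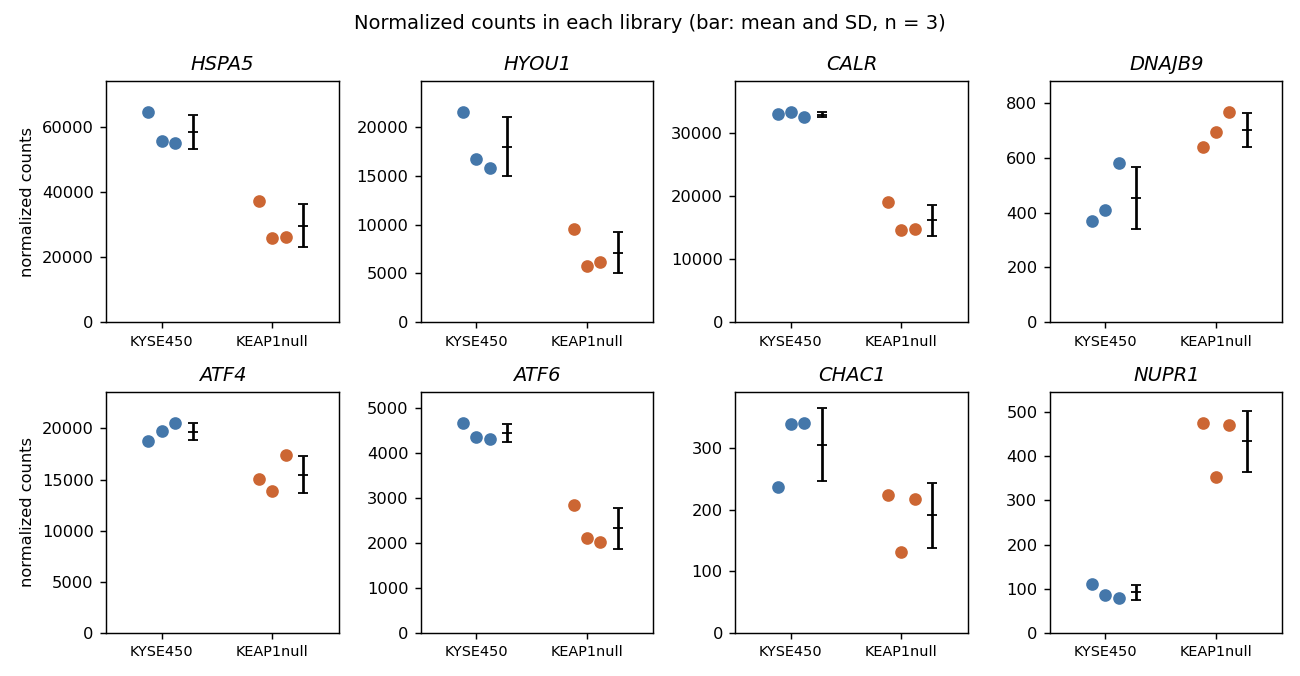
Normalized counts of 8 genes in the 3 KYSE450 (blue) and 3 KEAP1null-KYSE450 (orange) libraries, each panel with its own linear axis from 0, with the mean and SD (n = 3) as a black bar beside the points. HSPA5, HYOU1, CALR, ATF4, ATF6 and CHAC1 lay lower in every KEAP1null library than in any KYSE450 library, narrowly so for CHAC1, and DNAJB9 and NUPR1 lay higher.

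The libraries of a line did not lie equally. In KYSE450, library 1 was the highest of its line for 12 of the 15 chaperones and folding enzymes, and in KEAP1null-KYSE450 library 1 was the highest for 13 of 15. The median of the 15 genes, as the log2 deviation from the mean of the 6 libraries, was 0.52, 0.42 and 0.29 in KYSE450 and -0.14, -0.58 and -0.51 in KEAP1null-KYSE450 libraries. The medians of the lines did not overlap. Without KEAP1null library 1, 6 of the 15 were past both thresholds lower, without KEAP1null library 2 or without KEAP1null library 3 it was 2, and the count at an adjusted p under 0.05 was 14 whichever library was left out.

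Between genes, levels were compared per kilobase of exon, with the exons of all annotated transcripts of a gene merged. This length is not that of a single mRNA, so the order of genes depends in part on the annotation. In KYSE450 cells CALR stood at 11715 and CANX at 11460 normalized counts per kilobase, followed by HSPA5 at 8931. The ATF4 output DDIT4 (8457) and ATF4 itself (7539) came next. At the other end of the 44 tested genes, NUPR1 stood at 16.6 and ASNS at 13.2 per kilobase in the same cells, and the untested FGF21 was at 0.25.

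The ATF4 outputs did not move as a block. Of the 19 that were tested, 3 were higher in KEAP1null-KYSE450 cells, 5 were lower and 11 did not pass the test, where 24.3% of all tested genes were higher and 25.5% lower, so the share of lower genes is near that of all genes. The median log2 fold change was -0.10, within a range from -0.70 to 2.23. Every KEAP1null library was higher for 4 genes and lower for 4 genes, against 28.4% and 29.3% of all tested genes. The summed level of the 20 genes was 70647 ± 5017 (SD, n = 3) normalized counts in KYSE450 and 60283 ± 5507 (SD, n = 3) in KEAP1null-KYSE450 cells. These sums overlapped, with KEAP1null library 1 at 66163 and KYSE450 library 3 at 64918. A few genes with high counts weigh most in them. AARS went from a mean of 24464 to 15780, and DDIT4 from 17911 to 18441. The count of 5 lower genes was 2 without KEAP1null library 2 and 3 without KYSE450 library 2 or without KYSE450 library 3.

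NUPR1, a small stress-induced transcription cofactor at chr16:28532708-28539008, rose most among the 45 genes. It measured 110, 84.9 and 79.2 normalized counts in KYSE450 and 475, 354 and 472 in KEAP1null-KYSE450 libraries. The highest KYSE450 value was far below the lowest of the KEAP1null line, and the log2 fold change was 2.23 (SE 0.20, adjusted p = 1.90e-06), or 4.71-fold higher. SESN2, which encodes the leucine sensor sestrin and restrains mTORC1, rose by 0.71 (log2, SE 0.13, adjusted p = 0.000793), from 504, 397 and 445 in KYSE450 to 770, 689 and 729 in KEAP1null-KYSE450 libraries. Both calls held under the 16 other settings. CTH, the enzyme that makes cysteine from cystathionine, was higher by 0.41 (log2, adjusted p = 0.032) and lost its call under 8 of the 16.

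CHAC1, which degrades glutathione and has a CARE in its promoter, fell. Its levels were 237, 339 and 340 normalized counts in KYSE450 and 224, 130 and 218 in KEAP1null-KYSE450 libraries, so the highest KEAP1null value nearly reached the lowest of KYSE450. The log2 fold change was -0.70 (SE 0.23, adjusted p = 0.023), and the call was lost under 6 of the 16 other settings. Within 1 Mb of CHAC1 lie 42 other tested genes, of which 19 were lower, with a median of -0.36. The part of this region in the fall of CHAC1 was not tested. The secreted glycoprotein STC2 was lower by a log2 fold change of -0.66 (adjusted p = 0.011), with overlapping lines and a call lost under 4 of the 16 other settings. AARS, the alanyl-tRNA synthetase, was at -0.65 (adjusted p = 0.000988) with no overlap and kept its call under every other setting tried.

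DDIT3, the gene of the death-linked factor CHOP, was at 672, 826 and 912 normalized counts in KYSE450 and 532, 587 and 673 in KEAP1null-KYSE450 libraries. The top KEAP1null value and the bottom KYSE450 value overlapped narrowly, and the log2 fold change was -0.42 (SE 0.14, adjusted p = 0.028), a call lost under 7 of the 16 other settings. Its exons share 355 bases with MARS, a tRNA synthetase gene on the other strand with a mean of 15237 against 700 for DDIT3. MARS was itself lower (-0.35), and how far its reads enter the DDIT3 value was not tested. PPP1R15A, the phosphatase subunit that reverses eIF2 phosphorylation, was at -0.39 (log2, adjusted p = 0.013) and lost its call under 3.

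Classical ATF4 outputs were among the 11 that did not pass. TRIB3, a pseudokinase that binds ATF4, had 1170, 1141 and 1107 normalized counts in KYSE450 and 1355, 1220 and 1498 in KEAP1null-KYSE450 libraries. Every KEAP1null library was higher, and the log2 fold change was 0.25 (95% interval 0.0091 to 0.49, adjusted p = 0.079), which passed under 3 of the 16 other settings. ASNS, asparagine synthetase, was at 75.9, 57.6 and 60.6 in KYSE450 and 84.9, 61.2 and 74.7 in KEAP1null-KYSE450 libraries, with overlap, a log2 fold change of 0.18 (95% interval -0.38 to 0.74, adjusted p = 0.59) and a negative sign after quantile normalization. At this level a change of the size seen for SESN2 lies inside the interval of ASNS.

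The other 9 comprise the transcription factors ATF3 (-0.31), CEBPB (-0.16), CEBPG (-0.10) and ATF5 (0.18), the mTORC1 inhibitor DDIT4 (0.05), the transsulfuration enzyme CBS (0.07), the tryptophanyl-tRNA synthetase WARS (-0.09), the lipoprotein receptor VLDLR (-0.15) and the cytokine GDF15 (-0.10), all as log2 fold changes. ATF5 shares 565 exon bases with NUP62 on the other strand. CBS has a near-identical copy, CBSL, listed at 17.2 to 55.0 normalized counts, so reads may be split between them. FGF21, a hormone and the untested output, was listed at 0, 1.01 and 0 in KYSE450 and at 0.923, 0 and 10.1 in KEAP1null-KYSE450 libraries. The last value is the 1 above the limit of 3 reads, which is 2.77 to 3.21 normalized counts per library and covers counting error only.

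**Figure D3:**
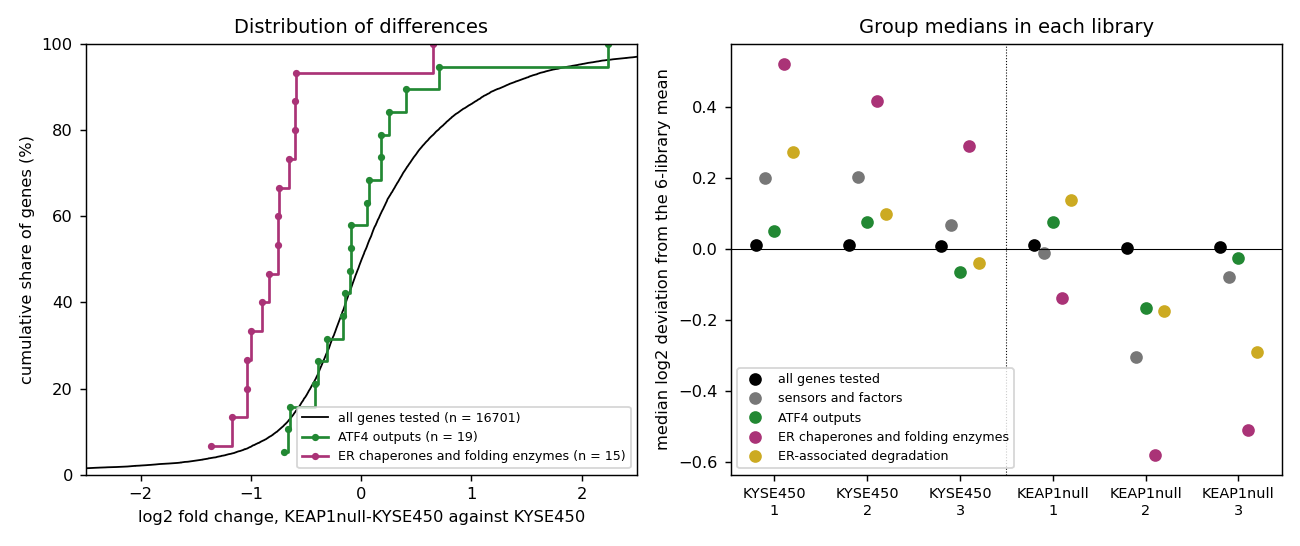
Left, the cumulative share of genes against the log2 fold change for all 16701 tested genes, the 19 tested ATF4 outputs and the 15 chaperones and folding enzymes, with the far tails of all genes beyond the axis; right, the median log2 deviation from the 6-library mean in each library for the 4 roles and all genes, with a dotted line between the lines. The chaperone curve reaches 14 of its 15 genes at -0.59, and the chaperone medians are 0.29 to 0.52 in KYSE450 and -0.58 to -0.14 in KEAP1null-KYSE450 libraries, while those of the ATF4 outputs are between -0.17 and 0.08 in both lines.

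Side by side, the chaperones and the ATF4 outputs differed in counts and in median. At an adjusted p under 0.05, 14 of 15 against 5 of 19 genes were lower and 1 of 15 against 3 of 19 were higher, with medians of -0.75 and -0.10. Over all tested genes 25.5% were lower and 24.3% higher, so the share of lower ATF4 outputs is near that of all genes. The per-library medians of the ATF4 outputs were 0.05, 0.08 and -0.07 in KYSE450 and 0.08, -0.17 and -0.03 in KEAP1null-KYSE450 libraries, which overlapped, whereas those of the chaperones did not. The falls of CHAC1, STC2 and AARS were as large as those of the less changed chaperones, so the ranges of the groups overlapped. Median GC content, taken from the longest transcript of a gene, was 52.5% for the ATF4 outputs and 48.0% for the chaperones. Median length of the merged exons was 3462 and 5590 bases. A fit added after the data were seen removed the trend with GC content and length. In it the chaperones counted 14 lower with a median of -0.83, and the ATF4 outputs 4 lower and 5 higher. The groups also differed in level. In KYSE450 the mean summed level was 430445 normalized counts for the 15 chaperones and 70647 for the ATF4 outputs. DNAJB9, the chaperone that rose, had the lowest KYSE450 mean of the 15, at 454. Among all genes whose mean reached 10000, 45.5% were lower, with a median of -0.22. The part of level, GC content or length in the difference between the groups was not tested, and no test of that difference was made.

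Upstream, the mRNAs of ATF6, ATF4 and XBP1 fell and that of CREB3L2 rose, while ERN1 and EIF2AK3 did not pass the test. ATF6 was at 4662, 4351 and 4301 normalized counts in KYSE450 and 2843, 2114 and 2019 in KEAP1null-KYSE450 libraries. Its lines were well separated, with a log2 fold change of -0.95 (SE 0.12, adjusted p = 5.43e-05) that was kept under every other setting. Within 1 Mb of ATF6 lie 30 other tested genes, of which 13 were lower, with a median of -0.45. That is the lowest such median around any of the 45 genes, the highest being 0.62 around CREB3L2, and the part of the region in the fall of ATF6 was not tested.

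ATF4 mRNA was at 18821, 19756 and 20517 normalized counts in KYSE450 and 15041, 13895 and 17436 in KEAP1null-KYSE450 libraries. The lines did not overlap, and the log2 fold change was -0.36 (SE 0.10, adjusted p = 0.013), a call lost under 4 of the 16 other settings. XBP1, which has an ERSE of its own, was at 4923, 5647 and 5455 in KYSE450 and 4401, 4004 and 4812 in KEAP1null-KYSE450 libraries, a log2 fold change of -0.28 (SE 0.10, adjusted p = 0.035) that lost its call under 10 of the 16 other settings. ATF4 is controlled in translation and XBP1 in splicing, and counts per gene show neither.

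ERN1 was at 603, 490 and 407 normalized counts in KYSE450 and 496, 377 and 413 in KEAP1null-KYSE450 libraries, with overlap and a log2 fold change of -0.21 (95% interval -0.58 to 0.15, adjusted p = 0.31). EIF2AK3 gave 1257, 1259 and 1003 in KYSE450 and 1140, 801 and 822 in KEAP1null-KYSE450 libraries, also with overlap, and its log2 fold change was -0.36 (95% interval -0.69 to -0.03, adjusted p = 0.064), past the test under 3 of the 16 other settings. CREB3L2, a membrane-bound factor of the ATF6 kind, was higher by 0.51 (log2, SE 0.16, adjusted p = 0.019) with overlapping lines, a call lost under 5 of the 16.

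The genes of ER-associated degradation were divided. EDEM1, a lectin that hands misfolded glycoproteins to degradation, fell by 0.83 on the log2 scale (adjusted p = 0.00022), and SEL1L, the scaffold of the HRD1 ligase, fell by 0.41 (adjusted p = 0.017), which lost its call under 7 of the 16 other settings. SYVN1, the HRD1 ligase itself, had a log2 fold change of -0.01 (95% interval -0.30 to 0.28) whose sign changed under 8 of 16 other settings, and it shares 356 exon bases with MRPL49 on the other strand and 130 with FAU on its own strand, whose mean was 13410 against 1667 for SYVN1. HERPUD1, which brings this ligase complex together and has both an ERSE-II and a CARE, was at 1904, 2065 and 1863 normalized counts in KYSE450 and 2478, 2112 and 2456 in KEAP1null-KYSE450 libraries. The values did not overlap, with a log2 fold change of 0.27 (SE 0.10, adjusted p = 0.044), and the call was lost under 9 of the 16 other settings.

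Further genes that carry an ERSE were looked up across the matrix. Of 16 tested genes with an ERSE, 11 were lower and 1 was higher, but 7 of the 16 are among the 45 genes. Of the other 9, 4 were lower and 1 higher, with a median of -0.22. For ERSE-II, 7 of 12 tested genes outside the 45 were lower and 1 was higher (SERP1, a translocon-associated protein, at 0.39). A CARE was held by 316 tested genes outside the 45, of which 98 were lower and 81 higher with a median of -0.03. The antioxidant response element bound by NRF2, TGACNNNGC, was found in 13 of the 43 promoters, of which 7 belong to ATF4 outputs and 4 to chaperones. It was present in 13.3% of all windows and in 19.2% of tested genes with a window, of which 659 were lower and 527 higher with a median of -0.04. Of all tested genes 25.5% were lower and 24.3% higher. The genes with a CARE or an antioxidant response element were near these shares.

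Outside the 45 genes, 142 genes of the same pathways were listed in 8 groups and 137 were tested, of which 59 were lower and 15 higher, with a median of -0.23. Of all tested genes 25.5% were lower and 24.3% higher, and of those whose mean reached 1000 the shares were 37.5% and 16%. After quantile normalization these counts were 35 and 23, and without KEAP1null library 2 they were 37 and 14. The folding machinery again lay low. Of 23 further ER folding enzymes, 13 were lower and 10 did not pass, with a median of -0.45, and ERO1A, the oxidase that recharges the disulfide isomerases, fell by 1.31 on the log2 scale (adjusted p = 6.10e-06), from 10246, 9724 and 7536 to 4277, 3547 and 3233 normalized counts. In the translocon, signal peptidase and traffic group, 8 of 25 were lower, 0 were higher and 17 did not pass. The share of lower genes there is near those of all tested genes, and the share of higher genes is below them. Of 16 tested further degradation genes 7 were lower and 1 was higher. Of 8 tested membrane-bound factors and proteases 2 were lower and 1 was higher.

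**Figure D4:**
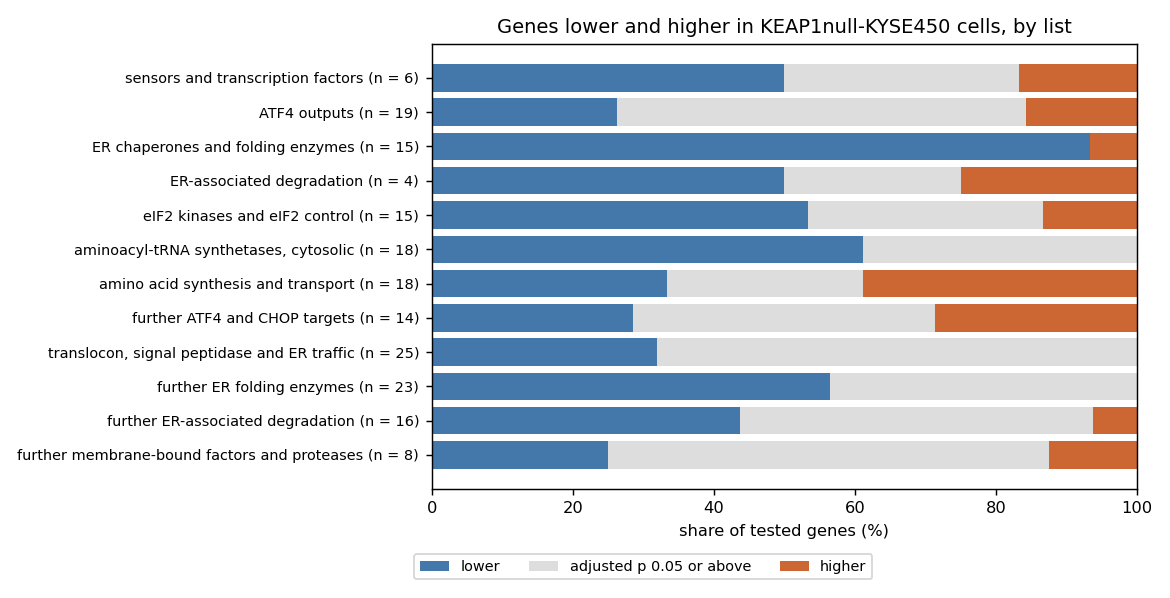
Share of the tested genes of each list that were lower (blue), higher (orange) or had an adjusted p of 0.05 or above (grey) in KEAP1null-KYSE450 cells; the number tested stands beside each name, the upper 4 bars are the 45 genes by role and the lower 8 bars the further lists. The blue share is largest for the ER chaperones and folding enzymes (14 of 15), and the orange share for amino acid synthesis and transport (7 of 18). For all tested genes these shares were 25.5% lower and 24.3% higher.

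The further genes linked to ATF4 were divided between lists, with the aminoacyl-tRNA synthetases on the lower side. Of 18 cytosolic aminoacyl-tRNA synthetases, 11 were lower, 0 were higher and 7 did not pass, and 17 of the 18 log2 fold changes were below 0. Of all tested genes 25.5% were lower, and of those whose mean reached 1000 it was 37.5%. VARS, which charges valine tRNA, was at 24982, 20136 and 20151 normalized counts in KYSE450 and 9608, 7424 and 8772 in KEAP1null-KYSE450 libraries, a log2 fold change of -1.34 (SE 0.12, adjusted p = 2.16e-06). Within 1 Mb of VARS lie 63 other tested genes, of which 30 were lower, with a median of -0.36. The part of this region in the fall of VARS was not tested. Of 15 genes of eIF2 kinases and eIF2 control, 8 were lower and 2 higher.

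Among 18 genes of amino acid synthesis and transport, 7 were higher and 6 lower. The shares of all tested genes were 24.3% higher and 25.5% lower, and 16% and 37.5% where the mean reached 1000. SLC7A11, the cystine transporter and a known target of both ATF4 and NRF2, was at 2452, 2141 and 2440 normalized counts in KYSE450 and 16496, 13135 and 12491 in KEAP1null-KYSE450 libraries (log2 fold change 2.57, adjusted p = 3.13e-09). ALDH1L2, a mitochondrial folate enzyme, rose by as much (2.57, adjusted p = 1.48e-08) and shares 131 exon bases with WASHC4 on the other strand, and the neutral amino acid transporter SLC1A4 rose by 1.32 (adjusted p = 3.28e-05). The leucine transporter fell in both of its chains, SLC7A5 with a log2 fold change of -1.47 (adjusted p = 3.94e-05) and SLC3A2 with -1.15 (adjusted p = 0.000101).

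SLC7A5 measured 135638, 95230 and 93198 in KYSE450 and 50795, 30384 and 36746 in KEAP1null-KYSE450 libraries. Among 14 tested further targets of ATF4 and CHOP, 4 were higher and 4 lower. These are near the shares of all tested genes, 24.3% higher and 25.5% lower. Past both thresholds the shares of all tested genes were 12.2% higher and 5.98% lower. The autophagy receptor SQSTM1, which is also a known NRF2 target, was the 1 past both thresholds, at 17627, 15348 and 15856 in KYSE450 and 57420, 50161 and 52149 in KEAP1null-KYSE450 libraries (log2 fold change 1.71, adjusted p = 4.33e-08). On the other strand, SQSTM1 shares 1582 exon bases with MRNIP and 105 with MGAT4B, whose means were 830 and 8306 against 34760.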

How the data were processed

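The authors deposited 1 matrix of normalized counts for 6 libraries, a signal equal to the read count per gene divided by a size factor per library. The submitters' processing notes list FastQC 0.11.5, cutadapt 1.12, STAR 2.6.90c and featureCounts 1.5.1, with hg38 among the genome builds, and whether counting used strand is not given in the sources used here. The methods name RefSeq, while the rows carry Ensembl identifiers. Whole reads were recovered with a tolerance of 0.1 for 4 libraries, 100% of whose values came out whole, giving 53027359 to 61543442 reads. In the other 2 libraries 1 read is worth too nearly 1 for this check. The depth limit of 3 reads covers counting error only.

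The lines were compared with limma 3.58.1 (R 4.3.3, with eBayes moderation along the trend in mean level, two-sided) on log2 of the normalized count plus 1 over the 16701 genes whose mean reached 10, with Benjamini-Hochberg adjustment. This fold change understates changes of low genes. The thresholds were an adjusted p of 0.05 and, for the stricter call, a log2 fold change of 1. No set test was made. The other settings used a pseudocount of 0.1 or 10, every gene above 0, a minimum mean of 100, rescaling to one total, quantile normalization, no trend, each library left out, and edgeR 4.0.16 (TMM, quasi-likelihood) and DESeq2 1.42.0 on the recovered reads of 4 libraries. Past both thresholds limma called 3044 genes, edgeR 2698 and DESeq2 2500. Removal of the trend with GC content and length was added after the data were seen. Every tool was tried on simulated data. Positions, exon length, GC content and overlaps came from gencode v44 (16630 of the 16701 identifiers) and promoters from RefSeq on GRCh38.p14, matched by symbol.

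The members, lists and tests were chosen with earlier results of these data known. Values in every library are given for members past both thresholds, for ATF4, XBP1, ATF6, ERN1, EIF2AK3, HSPA5, DDIT3, TRIB3, ASNS, CHAC1 and HERPUD1, and for further genes picked after their values were seen (DNAJB9, SESN2, FGF21). Outside the members, up to 3 genes of a list in each direction past both thresholds are named, with KEAP1, NFE2L2 and NQO1, and MARS, ALG12 and SERP1 were added after their values were seen.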

Additional observations from a re-analysis of the deposited data

How the results depend on the processing

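Compared with the values above, 16 other settings were run. The count of ER chaperones and folding enzymes that were lower stayed at 14 except with edgeR (11), and NUPR1 was past both thresholds under each. edgeR on the recovered reads of 4 libraries gave 2 chaperones lower past both thresholds and 0 higher, 1 ATF4 output lower, 3 of the 45 genes higher, 14 lower and 2 lower past both thresholds, and 24 of the further pathway genes lower. With DESeq2 the same counts were 2, 0, 1, 2, 18, 2 and 33. These fits have fewer libraries. eBayes without trend gave 2 ATF4 outputs lower, 3 of the 45 genes higher and 37 further genes lower. Quantile normalization gave 2 chaperones and 2 of the 45 genes lower past both thresholds and 23 further genes higher against 35 lower; over all genes 51.8% of the calls past both thresholds were then higher, against 67.2% with the deposited scaling and 56.2% among genes with a mean of at least 100. Removal of the GC and length trend gave 5 ATF4 outputs higher. The causes were not tested. The median of all genes was 0.10 with no filter and -0.08 with a mean of at least 100.

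Signs turned for genes that did not pass the test. SYVN1 was at 0.0211 after rescaling, 0.0886 after quantile normalization, 0.0453 with edgeR, 0.0154 with DESeq2 and 0.172 without the GC and length trend, and KEAP1 was at 0.0156, 0.135 and 0.175 after rescaling, quantile normalization and removal of that trend. Quantile normalization also put CEBPG at 0.0441, ASNS at -0.252 and WARS at 0.108, and removal of the trend put WARS at 0.0292. VLDLR was at 0.0633 with edgeR and 0.0340 with DESeq2. With each library left out in turn, SYVN1 ranged from -0.133 to 0.102, KEAP1 from -0.0725 to 0.0403, GDF15 from -0.205 to 0.0757 and DDIT4 from -0.0592 to 0.160.

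Over the 6 fits that left out 1 library, the ATF4 outputs had 2 to 3 genes higher and 2 to 5 lower, with a median from -0.15 to -0.03. The chaperones had 2 to 6 lower past both thresholds, with a median from -0.87 to -0.70. The 45 genes had 3 to 6 higher, 18 to 24 lower and 2 to 7 lower past both thresholds, and the further pathway genes 13 to 16 higher and 37 to 68 lower. KEAP1null libraries 2 and 3 gave the count of 2 and KEAP1null library 1 the counts of 6, 7 and 68. Over single members and settings, 609 values kept direction and call, 68 lost the call, 9 gained it and 17 turned sign. No paired analysis was possible because the columns of the matrix carry no replicate numbers. Depth limits FGF21 and the other genes near 3 reads.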
